A study of Mus musculus with 4 samples.

Results

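The metallothionein genes Mt1 and Mt2 and 6 genes that the transcription factor NRF2 is known to drive were followed in mouse primary osteoblasts. The 6 were Gclc and Gclm for glutathione synthesis, Srxn1 and Txnrd1 for the repair of oxidised protein thiols, Hmox1 for heme breakdown and Nqo1 for quinone reduction. Every non-control probe that carried 1 of the 8 gene names was taken, which gave 10 of the 55681 non-control probes on the array and 8 of their 34844 gene names, with 2 probes each for Mt1 and Hmox1. Each of the 10 probes was printed on 1 spot and was well above background on all 4 arrays, so no member was lost to the filter on dim probes.

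The cells were treated for 72 h in 10% serum and measured on 4 single-colour Agilent arrays, 1 array per treatment. The treatments were no added protein, LOXL2 alone at 4 µg/ml, BMP2 alone at 200 ng/ml, and both proteins at those doses. The labels enter the cell type as pre-osteoblasts for the arrays without BMP2 and as osteoblasts for the arrays with it. Strain, age and the number of cell preparations are not given in the sources used here. With 1 array per treatment there was no replicate. In the main fit the p-values rest on how far the BMP2 difference changes with LOXL2, and on a prior taken from all probes. That change may be technical or a true interaction, and it is not a spread between replicate cultures. BMP2 is a growth factor that drives bone and cartilage formation, and the design text gives its control of osteoblast differentiation as the subject. LOXL2 is a copper-dependent oxidase that cross-links collagen and releases hydrogen peroxide.

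NRF2, the product of Nfe2l2, is held in the cytoplasm and marked for destruction by KEAP1 and the ubiquitin ligase CUL3. Oxidants and electrophiles release it, and with a small MAF protein it binds antioxidant response elements, where the repressor BACH1 competes with it. Metallothioneins are small cysteine-rich proteins that bind zinc and copper, and the zinc-sensing factor MTF1 raises their transcription through metal response elements. In osteoblasts, excess oxidants are known to hold back differentiation.

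The 4 arrays shared 1 slide and 1 scan time, so the place of an array on the slide cannot be told apart from its treatment. Between 60.4% and 62.2% of spots were well above background, no spot was saturated, and the 75th percentile of the intensity lay between 710.6 and 742.9. Levels are given as the log2 intensity minus that percentile, a scale that compares arrays for 1 probe and not probes with each other. Probes on at least 8 spots gave a median spot SD of 0.064 to 0.067 on the log2 scale, or 0.0913 to 0.0938 for a difference between 2 arrays. All 6 osteoblast markers (Runx2, Sp7, Alpl, Col1a1, Bglap and Ibsp) were well above background on every array, and 4 of them rose with BMP2 and 0 fell in limma (adjusted p under 0.05). Over all 24040 genes, with 1 probe per gene, 6.14% rose and 6.58% fell by that rule. The 3 probes of Runx2 gave BMP2 effects of 0.08 to 0.73, and 0 of them were called.

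All 10 probes were higher on both BMP2 arrays than on both arrays without BMP2. Of all 33974 probes tested, 36.8% had both BMP2 arrays above both others and 31.9% had both below. In the additive limma model, which fits BMP2 and LOXL2 together and tests 2 arrays with a protein against 2 without it, 5 of the 10 member probes rose with BMP2 at an adjusted p under 0.05 and 0 fell. Over all probes 5.76% rose and 6.19% fell by that rule, 12% in all. The 5 were both Mt1 probes and the probes of Mt2, Gclc and, for Hmox1, the second of 2 probes. At an unadjusted p under 0.05 all 10 member probes were higher with BMP2, against 21.0% of all probes higher and 18.0% lower. Read from the brightest probe of each gene, 3 of the 8 genes rose, namely Mt1, Mt2 and Gclc. The median BMP2 effect of the 10 was 0.63 on the log2 scale, and that of all probes tested was 0.02.

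These calls lie close to the threshold and depend on the number of arrays and on the filter. Without the filter on dim probes 0 of the 10 were called in limma (smallest adjusted p = 0.132; 9 of 10 at an unadjusted p under 0.05), and with any 1 array left out and BMP2 alone in the model 0 of the 10 were called, with a smallest adjusted p of 0.0643 without the untreated array, 0.0517 without the LOXL2 array, 0.0533 without the BMP2 array and 0.0555 without the combined array, while 9 of 10 stayed at an unadjusted p under 0.05 in each. The loss was array-wide, with 0 of 55664 probes called without the filter in limma (11949 at an unadjusted p under 0.05) and 0, 323, 1598 and 923 of 33974 in the fits without the untreated, LOXL2, BMP2 and combined array.

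**Figure D1:**
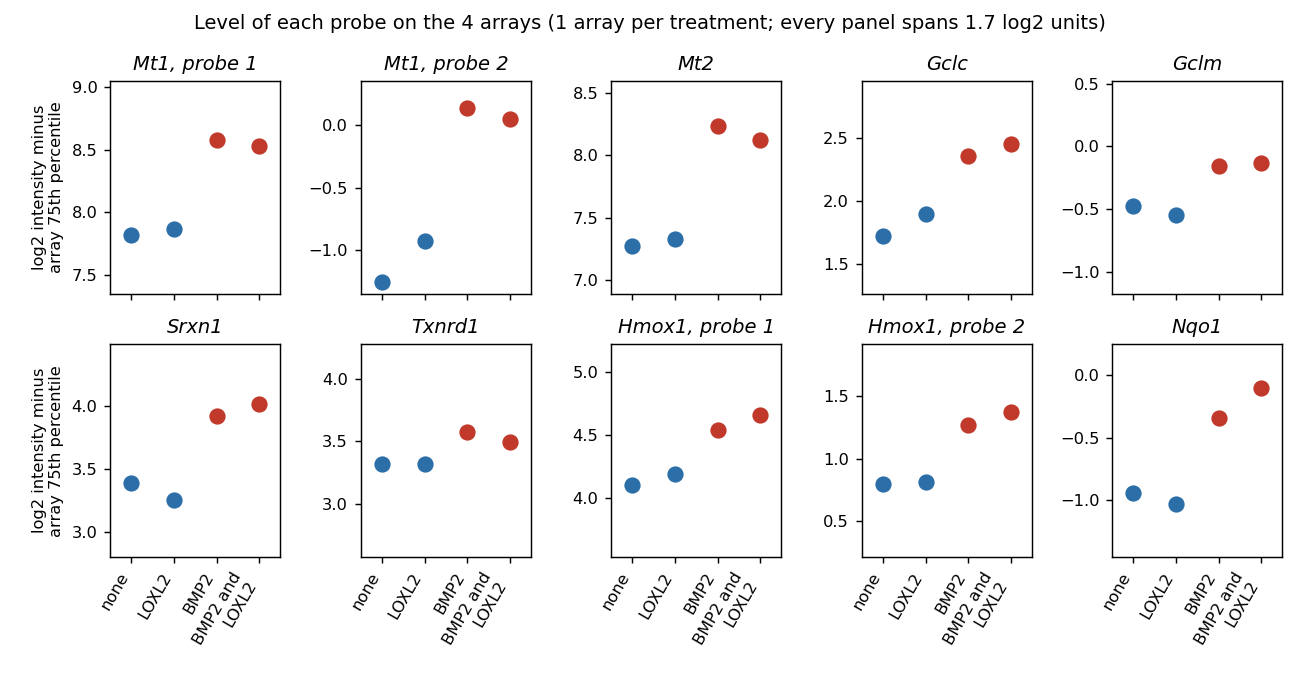
Level of each of the 10 probes on the 4 arrays, as log2 intensity minus the array's 75th percentile, with 1 point per array, blue without BMP2 and red with it. In every panel both red points lie above both blue points, and the step is smallest for Txnrd1.

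The metallothioneins had the largest fitted effects of BMP2 among the probes called. The main Mt1 probe lies on chromosome 8 from 96704165 to 96704224 (mm9), and the second lies 321 bases upstream, from 96703844 to 96703903. The Mt2 probe lies on the same strand from 96697371 to 96697430, with 6473 bases between its start and that of the nearer Mt1 probe. The last 30 of the 60 bases of each probe are printed to show that the probes read different sequence, with the polyadenylation hexamer AATAAA in capitals. Among these printed bases it occurs in the main Mt1 probe only.
Mt1 main probe: gtacgtgaatAATAAAagcctgtttgagtc
Mt1 second probe: cggaggccattgtattgtctcggggacaga
Mt2 probe: ctcgttctccacaactttttctataaagca

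The main Mt1 probe had processed intensities of 160700 (no protein), 168600 (LOXL2), 276700 (BMP2) and 275400 (both). On the normalized log2 scale its levels were 7.82, 7.86, 8.58 and 8.53 in that order. The 2 arrays without BMP2 were within 1 spot SD of each other, as were the 2 with it, and the groups did not overlap. The fitted effect of BMP2 was 0.71 ± 0.06 (log2 change ± SE, 2 arrays against 2, limma adjusted p = 0.0382), a 1.64-fold rise. Mt2 had intensities of 110400, 116600, 218800 and 206800, and normalized levels of 7.28, 7.33, 8.24 and 8.12. It rose by 0.87 ± 0.08 (limma adjusted p = 0.0382), or 1.83-fold, and its groups did not overlap either. For both genes the array with both proteins lay slightly below that with BMP2 alone, by 0.04 for Mt1 and by 0.12 for Mt2.

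The second Mt1 probe was dimmer, with intensities of 297.4, 381.3, 796.7 and 769.0, and rose by 1.18 ± 0.14 (limma adjusted p = 0.0476). Its BMP2 difference was 1.39 between the arrays without LOXL2 and 0.97 between the arrays with it. The main Mt1 probe differed by 0.75 and 0.67 in the same pairs, so the probes of Mt1 had the same direction and different sizes. The accession of the second probe was not matched in the RefSeq table, and its name is that of the array file.

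The promoters of the metallothioneins are printed because both genes rose with BMP2 and both carry matches to the metal response element. Whether these matches have a part in the rise was not tested. They are the 250 bases before the RefSeq start on GRCm38.p6, both on the plus strand, at chr8:94178839-94179088 for Mt1 and chr8:94172368-94172617 for Mt2. Capitals mark the antioxidant response element core TGACNNNGC and the metal response element cores TGCACNC and TGCGCNC, searched on both strands.
Mt1 promoter: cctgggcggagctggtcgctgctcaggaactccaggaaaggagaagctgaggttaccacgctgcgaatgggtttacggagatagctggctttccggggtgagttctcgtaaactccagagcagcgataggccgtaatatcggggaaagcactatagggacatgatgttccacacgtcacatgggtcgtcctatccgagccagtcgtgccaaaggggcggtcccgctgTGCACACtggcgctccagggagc
Mt2 promoter: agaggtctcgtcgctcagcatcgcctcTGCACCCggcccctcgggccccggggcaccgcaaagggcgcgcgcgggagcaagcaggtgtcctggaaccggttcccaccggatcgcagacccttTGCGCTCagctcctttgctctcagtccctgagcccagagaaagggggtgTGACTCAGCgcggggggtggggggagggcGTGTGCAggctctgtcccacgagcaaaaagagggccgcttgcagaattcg

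The searched window of 300 bases adds 50 bases after the start. In it Mt1 held 3 metal response element cores and no antioxidant core. These cores begin at -23, 2 and 20 relative to the start, and only the first is among the printed bases. Mt2 held 4 metal response element cores and 1 antioxidant core, TGACTCAGC. Among 32851 RefSeq promoter windows of the same length, 25.7% held at least 1 of the metal cores and 12.4% the antioxidant core. RefSeq promoters were matched for 6 of the 8 genes, with 3 alternative starts for Txnrd1. The antioxidant core was found once in Gclm, where it overlaps a metal core, once in Srxn1, once at 1 of the 3 Txnrd1 starts and not in the Nqo1 window. Metal cores were not particular to the metallothioneins. Gclm held 3, as many as Mt1, and Srxn1 held 1, while the Nqo1 and Txnrd1 windows held 0. These matches describe letters in a short window and are not measured binding sites. Bases beyond the window were not searched, so a missing match does not show that a gene lacks the element.

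Glutathione synthesis begins with glutamate-cysteine ligase, made of the catalytic subunit Gclc and the modifier subunit Gclm. Gclc (probe on chromosome 9, 77641296 to 77641355, mm9) had normalized levels of 1.72 without protein, 1.89 with LOXL2, 2.36 with BMP2 and 2.46 with both. It rose by 0.60 ± 0.06 (limma adjusted p = 0.0421), or 1.52-fold, and the arrays with and without BMP2 did not overlap. Gclm (chromosome 3, a probe that spans 2636 bases of the genome from 121962174 to 121964809) had levels of -0.48, -0.55, -0.16 and -0.14. Its groups were also separate, but the effect of 0.36 ± 0.06 missed the threshold (limma adjusted p = 0.0679).

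Sulfiredoxin, Srxn1, restores overoxidised peroxiredoxins, and thioredoxin reductase 1, Txnrd1, recycles cytosolic thioredoxin with NADPH. Srxn1 had levels of 3.39, 3.25, 3.92 and 4.02 in the order no protein, LOXL2, BMP2 and both. Its effect of 0.65 ± 0.09 was not called (limma adjusted p = 0.0565), although its size exceeded that of Gclc. Txnrd1 had levels of 3.32, 3.32, 3.57 and 3.49 and the smallest effect of the 10 probes, 0.22 ± 0.06 (limma adjusted p = 0.124). Its 2 BMP2 differences were 0.26 and 0.18, the second less than 2 times the spot SD of 0.0925.

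Heme oxygenase 1, Hmox1, splits heme into biliverdin, carbon monoxide and iron. Its first probe (chromosome 8, 77624207 to 77624266, mm9) had levels of 4.10, 4.19, 4.54 and 4.66, and its second (77620797 to 77620856) had 0.80, 0.81, 1.27 and 1.37. The effects were 0.45 ± 0.06 (limma adjusted p = 0.0513) and 0.52 ± 0.06 (limma adjusted p = 0.0494). Only the second is below 0.05, and the probes did not differ by more than their errors. Nqo1, which reduces quinones by a pair of electrons, had levels of -0.94, -1.03, -0.35 and -0.10. The 2 arrays without BMP2 lay below the 2 with it, and the effect was 0.76 ± 0.12 (limma adjusted p = 0.0594). Its BMP2 difference was 0.60 without LOXL2 and 0.93 under LOXL2, and this spread between the pairs is part of its larger error.

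**Figure D2:**
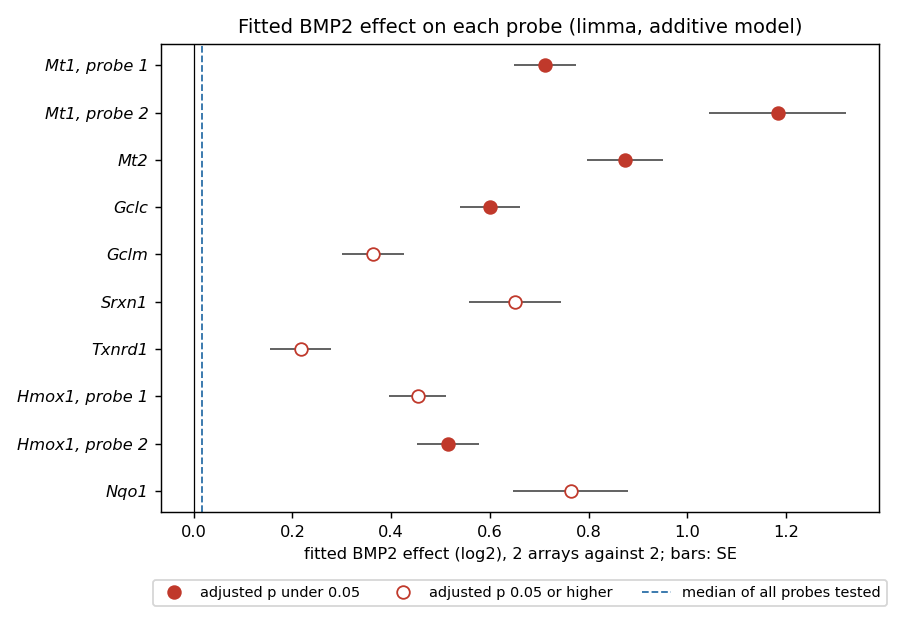
Fitted BMP2 effect (log2, x axis) on each of the 10 probes, with bars of 1 SE from the limma additive model on 2 arrays with and 2 without BMP2, filled where the adjusted p is under 0.05. All 10 effects lie above the median of all probes tested, from 0.22 for Txnrd1 to 1.18 for the second Mt1 probe.

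Single pairs of arrays were also read, with no test. Without LOXL2, 5 of the 10 probes were at least 1.5-fold higher with BMP2 and 0 were lower by that much, where 8.17% and 8.59% of all probes passed. Under LOXL2, 5 were at least 1.5-fold higher and 0 lower, against 7.18% and 8.69% of all probes. The lowest and highest member differences were 0.26 and 1.39 without LOXL2 and 0.18 and 0.97 under it. At a 2-fold limit 1 probe, the second of Mt1, was higher without LOXL2 (2.89% of all probes higher, 3.76% lower) and 0 under LOXL2 (2.62% and 3.89%). These 2 pairs share no array.

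To see whether LOXL2 moved the same genes, its 2 arrays were compared with the 2 without it in the same fit. The arrays with and without LOXL2 overlapped for all 10 probes. This had to be so, because both BMP2 arrays lay above both others for each of the 10. Over all probes 7.78% had both LOXL2 arrays above both others and 8.34% below, which is therefore no measure for these 10. None of the 10 was called in limma. Their fitted LOXL2 effects ran from -0.04 for Txnrd1 to 0.13 for Gclc, with a median of 0.03, and 0 of the 10 had an unadjusted p under 0.05. Over all 33974 probes, 0 (0%) were called for LOXL2 in limma and 1955 had an unadjusted p under 0.05, 2.77% of probes higher and 2.98% lower. The 95% interval of the LOXL2 effect was -0.21 to 0.21 for the main Mt1 probe, -0.29 to 0.23 for Mt2, -0.07 to 0.34 for Gclc, -0.09 to 0.30 for the first Hmox1 probe and -0.32 to 0.47 for Nqo1.

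The single LOXL2 differences were small beside those of BMP2. Without BMP2 they ran from -0.14 for Srxn1 to 0.33 for the second Mt1 probe, and under BMP2 from -0.12 for Mt2 to 0.24 for Nqo1. No member probe was 1.5-fold apart in either pair, where 2.26% and 1.77% of all probes were that much higher and lower without BMP2, and 1.93% and 2% under it.

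**Figure D3:**
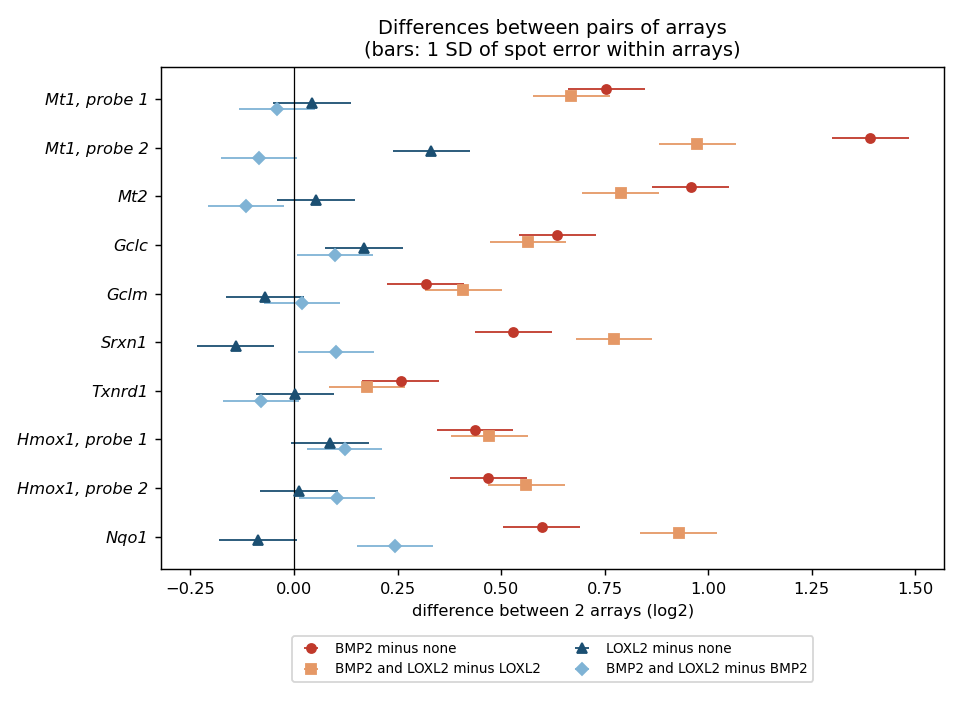
Differences between 2 single arrays (log2, x axis) for each probe, red and orange for the BMP2 pairs and blue for the LOXL2 pairs, with bars of 1 SD of the spot error within arrays. The BMP2 differences lie between 0.18 and 1.39 and the LOXL2 differences between -0.14 and 0.33.

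The regulators of the pathway were read from a list of 10 genes, with 1 probe per gene. Over all 24040 genes read this way, 6.14% rose and 6.58% fell with BMP2 in limma, and 22.0% were higher and 18.5% lower at an unadjusted p under 0.05. Of the 10 regulators, 3 rose with BMP2 and 0 fell in limma (6 higher and 0 lower at an unadjusted p under 0.05), with a median of 0.52, against a median of 0.02 over all genes. Nfe2l2 itself had levels of 3.63, 3.70, 4.14 and 4.15 in the order no protein, LOXL2, BMP2 and both, and rose by 0.48 ± 0.06 (limma adjusted p = 0.0493). The small MAF gene Maff rose by 0.81 ± 0.06 (limma adjusted p = 0.0367), and Sqstm1, an autophagy receptor that binds KEAP1, by 0.57 ± 0.06 (limma adjusted p = 0.0415; its 2 probes gave 0.57 and 1.01). For Keap1 the levels were 2.56, 2.58, 2.47 and 2.45, with an effect of -0.12 (limma adjusted p = 0.264). The small MAF gene Mafg was not called on its brightest probe (limma adjusted p = 0.053), while 3 of its 4 probes, which gave 0.60 to 0.68, were called. Bach1, the competing repressor, had an effect of 0.55 with a limma adjusted p = 0.0535. The largest effect in this list, 0.83 ± 0.10 for Nfe2l1, was not called (limma adjusted p = 0.0505) and was named after its value was seen.

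Of 24 other NRF2 target genes tested, out of 25 listed, 3 rose and 0 fell in limma (8 higher and 2 lower at an unadjusted p under 0.05), with a median of 0.15. Malic enzyme, Me1, a source of NADPH, rose by 0.78 ± 0.06 (limma adjusted p = 0.0369; its 3 probes gave 0.70 to 0.78). The exporter Abcc4 rose by 0.64 ± 0.06 (limma adjusted p = 0.0385) and glutathione reductase, Gsr, by 0.63 ± 0.06 (limma adjusted p = 0.0396). Lower with BMP2 at an unadjusted p under 0.05 were Osgin1, at -0.39 (limma adjusted p = 0.0583), and the glutathione transferase Gstm2, at -0.31 (limma adjusted p = 0.0739; its 3 probes gave -0.33 to -0.28), both named after their values were seen. The largest effect in this list, 1.24 ± 0.16 for the glutathione transferase Gsta1, was not called (limma adjusted p = 0.0523). It too was named after its value was seen. The gene left untested, Ugt1a6a, was not well above background on any array.

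Of 21 genes of glutathione and peroxide metabolism outside the NRF2 lists, not all of them enzymes, 0 rose and 3 fell with BMP2 in limma (4 higher and 9 lower at an unadjusted p under 0.05), with a median of -0.22. The 4 higher, named after their values were seen, were glutathione synthetase, Gss, at 0.36, Gpx4 at 0.35, Prdx3 at 0.22 and Ggct at 0.20. Lower but not called were Gpx7 at -0.39, Gpx3 and Prdx2 at -0.38, Gpx8 at -0.34, Prdx4 at -0.32 and Gpx1 at -0.22. These too were named after their values were seen, and a second Prdx4 probe gave 0.001. Txnip, which binds and inhibits thioredoxin, fell by 2.86 ± 0.12 (limma adjusted p = 0.0298), with a second probe at -1.04. Glutaredoxin, Glrx, fell by 0.84 ± 0.07 (limma adjusted p = 0.0376), and the extracellular superoxide dismutase Sod3 fell by 0.63 ± 0.06 (limma adjusted p = 0.0388). The processed intensities of Txnip were 355.0 without protein and 341.8 with LOXL2, and only 44.2 with BMP2 and 54.5 with both.

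In zinc and copper handling 5 of 19 genes rose and 0 fell in limma (8 higher and 1 lower, Ccs, at an unadjusted p under 0.05), with a median of 0.06. Among them were 4 zinc importers of the ZIP family. The other ZIP genes of the list, Slc39a1, Slc39a7 and Slc39a13, had effects of 0.06, 0.14 and -0.007 and were not called. Slc39a8 rose by 0.82 ± 0.06 (limma adjusted p = 0.0343), Slc39a14 by 0.79 ± 0.06 (limma adjusted p = 0.035), Slc39a10 by 0.68 ± 0.07 (limma adjusted p = 0.0447) and Slc39a6 by 0.52 ± 0.06 (limma adjusted p = 0.0447). The fifth, the metallothionein Mt4, rose by 0.52 ± 0.06 (limma adjusted p = 0.0481) and was named after its value was seen. Mtf1 had levels of -0.15, -0.11, -0.21 and -0.12 and an effect of -0.03 (limma adjusted p = 0.708). The metallothionein Mt3 had an effect of -0.06 (limma adjusted p = 0.624), so the 4 metallothionein genes did not share 1 response.

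In heme and iron handling 2 of 12 genes rose and 0 fell in limma (6 higher and 0 lower at an unadjusted p under 0.05), with a median of 0.21. The transferrin receptor Tfrc rose by 1.10 ± 0.07 (limma adjusted p = 0.0331), and its 3 probes gave 0.84 to 2.03. The ferritin heavy chain Fth1, which has processed copies close in sequence, rose by 0.65 ± 0.06 (limma adjusted p = 0.0387). Probes differed for Ftl1, at 0.26 on the probe used, not called, and 0.60 on its second (limma adjusted p = 0.0404). They also differed for Slc11a2, at 0.58 and -0.14, with no call. Both were named after their values were seen. In each of these 5 lists 0 genes were called for LOXL2 in limma, with 0 to 1 genes per list at an unadjusted p under 0.05.

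**Figure D4:**
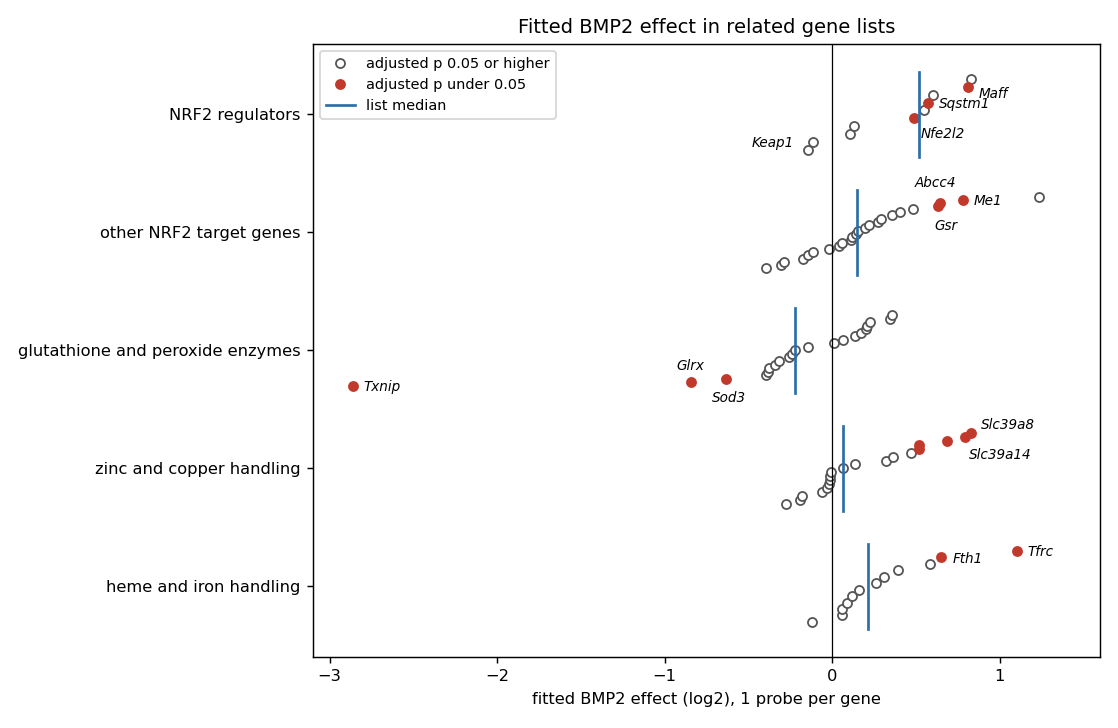
Fitted BMP2 effect (log2, x axis) of each gene tested in 5 related lists, 1 probe per gene, filled where the limma adjusted p is under 0.05, with the list median as a blue line. The medians run from -0.22 for the list labelled glutathione and peroxide enzymes to 0.52 for NRF2 regulators. Txnip, which is in the first of these lists and is not an enzyme, lies farthest from 0 at -2.86.

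Mt2 had the widest range over the 4 arrays among the members' main probes, 0.96. Of 14509 other genes with a RefSeq symbol and signal on all arrays, those with the smallest Euclidean distance to it over the 4 arrays, with each gene centred on its own mean, were the urate transporter Slc2a9 (0.0347), Uap1l1 (0.0354), Rnf227 (0.0502), the steroid dehydrogenase Akr1c18 (0.0556) and the endothelin-converting enzyme Ece1 (0.0654). Mt1 stood at rank 114 with a distance of 0.170, Nqo1 at 488, Srxn1 at 521, Gclc at 599, Hmox1 at 1150, Gclm at 1657 and Txnrd1 at 3147 (a distance of 0.658). With 4 arrays on 1 slide this likeness is a description.

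Markers of other cell types moved on the same arrays, and in bulk RNA fewer cells of a type and less RNA per cell cannot be told apart. Over all genes, with 1 probe per gene, 6.14% rose and 6.58% fell with BMP2 in limma. At an unadjusted p under 0.05, 22.0% were higher and 18.5% lower. Of 6 chondrocyte markers 5 rose with BMP2 and 0 fell in limma, and their summed level on the linear normalized scale was 52.8 and 61.3 without BMP2 and 233.2 and 352.7 with it. Of 9 macrophage markers tested, out of 10, 0 rose and 2 fell in limma (4 lower at an unadjusted p under 0.05), with a summed level of 11.7 to 12.6 without BMP2 and 9.52 to 9.84 with it, and Cd163 was not well above background on any array. Of 4 endothelial markers tested, out of 5, 0 rose and 1 fell (3 lower at an unadjusted p under 0.05), with summed levels of 30.7 to 31.7 without BMP2 and 29.7 to 31.1 with it, and Emcn was not well above background on any array. This sum was set almost wholly by Kdr, with a level of 4.96 without protein and an effect of -0.03 (second probe 0.25). The other 3, Pecam1, Cdh5 and Tek, had effects of -0.40, -0.72 and -1.39. Tek was well above background only on the arrays without BMP2, so it was tested only because of the group where it was high. Its effect and its count among the 3 lower carry no weight. Of 5 adipocyte markers 0 were called (3 higher at an unadjusted p under 0.05), with summed levels of 7.46 to 7.89 and 8.89 to 8.94. Adipoq, among the 3 higher, was well above background only on the arrays with BMP2, so the same limit holds for it as for Tek. Each sum weights its brightest probe most, namely Col2a1, Csf1r, Kdr and Fabp4 in the order of these cell types. The part of these cell types in the rise of the metallothionein and antioxidant genes was not tested.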

How the data were processed

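The deposited scanner files hold processed spot intensities. The authors obtained them in Feature Extraction (version 10.7.3.1, named in the submitters' processing notes), with local background taken off, spatial detrending on and surrogate values for dim spots, per the file headers. The series' deposited values equalled the mean spot intensity of a probe within 0.1% for 99.5% of probes and served as an alternative. Here log2 intensities had each array's 75th percentile over 59305 non-control spots subtracted, outlier spots (109 to 144 per array) were dropped and spots of a probe averaged. Probes well above background on at least 2 of 4 arrays were tested (33974) in an additive model with limma 3.58.1 (R 4.3.3), two-sided, with Benjamini-Hochberg adjustment over all of them and a threshold of 0.05. The residual is the interaction of the 2 proteins, with 1 degree of freedom and 1.69 from the prior. The script was tested on simulated data. Probe positions are on mm9 per the file headers; symbols and promoters come from RefSeq tables of GRCm38.p6. RefSeq symbols were found for 26756 probes, and the file's own name was used for the other 28925.

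Members and lists were chosen with earlier results of these data known. All member probes are shown. A gene in the related lists is read from its brightest probe, and up to 4 called genes per list with the largest BMP2 effect are named, plus Nfe2l2, Keap1, Bach1 and Mtf1. Alternatives covered normalization, background, filter, eBayes settings, 1 probe per gene, the deposited values, 1 protein in the model and leaving out each array. The number of arrays limits the precision.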

Additional observations from a re-analysis of the deposited data

Results flagged for a closer look

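For 7 member probes the LOXL2 difference had opposite signs without and with BMP2, as it had for 45.6% of all probes. The LOXL2 difference with BMP2 minus that without it, on the log2 scale, was -0.42 for the second Mt1 probe, -0.084 for the main Mt1 probe, -0.17 for Mt2, 0.091 for Gclm, -0.082 for Txnrd1, 0.33 for Nqo1 and 0.24 for Srxn1. Each value rests on 4 single arrays and was not tested. The spot error alone has an SD of 0.131 for such a value. Values at least as large in size were found for 14.1% of all probes for the second Mt1 probe, 19.2% for Nqo1, 27.3% for Srxn1, 38.4% for Mt2, 59% for Gclm, 61.5% for the main Mt1 probe and 62.4% for Txnrd1.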

How the results depend on the processing

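The fitted BMP2 effect of all 10 member probes was above 0 in every alternative run (8 of 8 probes where 1 probe per gene was fitted), with 0 probes falling. The main Mt1 probe, Mt2 and Gclc were each called in 8 of 9 alternatives on all 4 arrays, Gclm in 4 and Txnrd1 in 2. For BMP2, 4060 probes were called over the array and 5 member probes rose. These counts were 11584 and 10 with normexp background correction, 6943 and 9 with probes above background on all 4 arrays, 13732 and 10 with eBayes trend and robust settings, 8332 and 9 with BMP2 alone in the model, and 0 and 0 without the filter on dim probes (smallest adjusted p = 0.125; 11949 probes at an unadjusted p under 0.05). With each array left out in turn and BMP2 alone in the model, the lone array being taken to vary like the others, 0 to 1598 probes were called (0 without the untreated array, 323 without LOXL2, 1598 without BMP2 and 923 without the combined array), and 0 to 0 member probes. For LOXL2, 71 probes were called with eBayes trend and robust settings, none of them a member. With LOXL2 alone in the model and an array left out, BMP2 and LOXL2 are no longer balanced, and the LOXL2 effect ran from -0.18 to 0.45 for Gclc, -0.23 to 0.18 for Gclm, -0.13 to 0.34 for Hmox1, -0.38 to 0.38 for Mt1, -0.51 to 0.45 for Mt2, -0.39 to 0.54 for Nqo1, -0.41 to 0.37 for Srxn1 and -0.17 to 0.089 for Txnrd1. At 2-fold instead of 1.5-fold, 1 member probe was higher with BMP2 without LOXL2 and 0 under it. No paired analysis was possible because each treatment had 1 array and so no replicate numbers to pair; the additive model already compares BMP2 arrays within LOXL2 status.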
